A study of Rattus norvegicus with 6 samples.

Results

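Potassium channel subunits were followed in the 832/13 INS-1 rat insulinoma line, a clone that serves as a model of pancreatic β-cells. The members were all probe sets whose single gene symbol in the array annotation begins with Kcn, except those of Kcnj11, the pore subunit of the ATP-sensitive channel, whose values are given beside its partners. There were 123 such probe sets for 74 genes, among 31042 probe sets that are not controls. Each probe set combines several short probes that read the same transcript. Of these genes, 44 had 1 probe set and 30 had more than 1, with at most 6 for a gene.

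Total RNA was measured on 6 Affymetrix rat arrays, with 1 array per sample. On 3 arrays the cells had been electroporated with COUP-TFII siRNA, which targets the mRNA of the nuclear receptor COUP-TFII (gene Nr2f2), and on 3 arrays with a scrambled siRNA as control. Cells of both groups came from the same clone, were used between passages 7 and 25, were kept in medium with 11 mM glucose and were cultured for 48 h after the siRNA. The labels call the arrays of a group biological replicates but do not say how the cultures were kept apart, so a p-value measures the spread between these arrays.

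Potassium channels let potassium leave the cell and so set the resting potential and end the action potentials that drive insulin release in β-cells. A voltage-gated channel is built from pore subunits (Kv, EAG, ERG, KCNQ), to which auxiliary subunits such as KChIP, Kv beta and MinK-related proteins bind and tune gating or transport to the membrane. Calcium-activated channels (BK, SK and IK) open when calcium enters, K2P channels carry leak current, and inward rectifiers (Kir) hold the membrane near rest.

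The signal is a MAS5 intensity on a linear scale. The brightest Nr2f2 probe set read 32.8 ± 12.4 (SD, n = 3) in COUP-TFII siRNA cells against 199 ± 31.5 (SD, n = 3) in control cells, a log2 fold change of -2.65. Its adjusted p was 0.404 in limma and 0.0185 with the replicate number as a block. The median signal of an array lay between 29.9 and 39.4. The array also carries 27 control probe sets against Bacillus RNA, absent from rat cells, and their highest signal was 20.7. This value serves as a scale for background, and members with both group means at or under it are called dim. All 10 β-cell markers that were measured lay above it, with Ins1 (insulin) between 9490 and 15843. Their summed signal ran from 39634 to 44158 in COUP-TFII siRNA cells and from 30364 to 41203 in control cells. Of these markers Nkx6-1 had an unadjusted limma p of 0.153 unpaired and 0.0331 with the block, at a log2 fold change of -0.45. All 10 neuron markers also lay above it in at least 1 group mean, with summed signals of 2239 to 3071 against 2022 to 2772. Among them Gad1, an enzyme of GABA synthesis, was lower in each pair, with a log2 fold change of -0.51 and an unadjusted limma p of 0.0283 unpaired and 0.000356 with the block. Snap25, a protein of vesicle fusion, was higher in each pair, with a log2 fold change of 0.32 and an unadjusted p of 0.206 unpaired and 0.00335 with the block. Of 8 muscle markers 2 lay above it, with summed signals of 2021 to 4221 against 2076 to 5016. Nearly all of that sum was the Myh1 probe set, at 1942 to 4129 against 1988 to 4950. Des had group means of 22.8 and 26.2, and the other muscle markers were dim. Of 5 measured markers of fibroblasts, endothelium and blood cells only Cd68 lay above the Bacillus signal. The sums of these were 57.4 to 64.8 against 58.5 to 107.7. The dim Ptprc had an unadjusted limma p of 0.0339 unpaired and 0.0383 with the block. Of 5 measured markers of other islet cells 2 lay above the Bacillus signal, Gcg and Ppy. Ppy had a log2 fold change of -0.12, and the dim Sst, Hhex and Ghrl had 0.23, -1.51 and 1.04. Glucagon (Gcg), an α-cell hormone, moved with the replicate number, at 8056, 4789 and 817 in COUP-TFII siRNA replicates 1, 2 and 3 and at 6313, 3397 and 394 in the control replicates. It also read higher in COUP-TFII siRNA cells in each pair, by 0.35, 0.50 and 1.05 on the log2 scale, with an unadjusted p of 0.571 unpaired and 0.00105 with the block. The part of these markers in the potassium channel results was not tested.

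Most potassium channel probe sets gave little signal. Of the 123 probe sets, 42 (34.1%), for 34 genes, lay above the Bacillus signal in the mean of at least 1 group, against 62.5% of all probe sets. Of the 123, 38 (30.9%) did so in both groups and 23 (18.7%) on all 6 arrays, against 57.4% and 50.2% of all probe sets. The other 81 were dim, and 40 of the 74 genes had dim probe sets only. On single arrays between 37 and 51 of the members lay above the Bacillus signal. Only 7 probe sets had a mean over 100. A signal depends on the probes as well as on the transcript, so the order of genes by signal is an order of readings and not of transcript numbers.

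**Figure D1:**
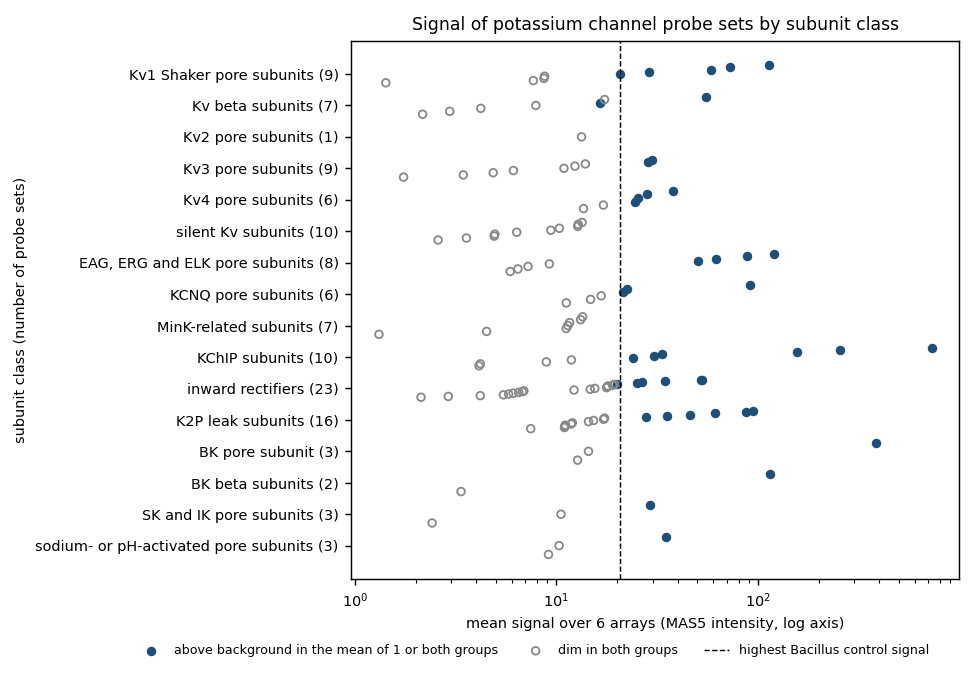
Mean signal over 6 arrays (MAS5 intensity, log axis) of 123 potassium channel probe sets, in rows by subunit class with the number of probe sets in brackets. Filled points lay above the highest Bacillus control signal of 20.7 (dashed line) in the mean of 1 or both groups, open points were dim in both, and a KChIP and a BK pore probe set sit farthest to the right.

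The classes differed in how many members gave a signal. Above the Bacillus signal were 6 of 10 probe sets for KChIP subunits, 5 of 9 for Kv1 pore subunits, 4 of 6 for Kv4, 4 of 8 for the EAG, ERG and ELK group and 3 of 6 for KCNQ. For K2P leak channels 6 of 16 probe sets, from 5 of 11 genes, did so, and for inward rectifiers 6 of 23, from 4 of 14 genes. By contrast 0 of 10 probe sets for the silent Kv subunits, which join other Kv pores and form no channel alone, and 0 of 7 for the MinK-related subunits did so. The single probe set for a Kv2 pore, Kcnb2, read 14.0 and 12.7 in the means of the COUP-TFII siRNA and control groups and was dim. Kcnn4, the IK pore subunit, read 3.84 and 0.994. Kcnk16 was not analysed here. What was dim may still be transcribed at a level that these probes do not show.

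Between COUP-TFII siRNA cells and control cells no potassium channel probe set passed the test once p-values were adjusted over all 31042. The limma fit made 0 calls among the 123 members and 0 among all probe sets. With the replicate number as a block it made 0 among the members and 5 among all probe sets (0.0161%), and the smallest blocked adjusted p of a member was 0.308, for Kcna2. At an unadjusted p up to 0.05 the unpaired fit picked 5 members (4.07%), against 2.31% of all probe sets. Of these 2 were higher in COUP-TFII siRNA cells, against 0.973% of all, and 3 were lower, against 1.34%. Of the 5, 4 were dim, a class in which 4.02% of all probe sets came so far, and 1 of the 38 above the Bacillus signal in both groups (2.63%) did so, against 0.965%. With the block it picked 6 members (4.88%), against 6.23% of all probe sets, and the methods' t-test picked 4 (3.25%), against 3.14%.

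For most members that gave a signal the difference between groups was small. Among the 38 above the Bacillus signal in both groups, 27 had a log2 fold change between -0.26 and 0.24, and the whole range ran from -0.93 to 0.82. Their median log2 fold change was -0.042, with 23 lower and 15 higher by mean, against a median of 0.0018 over all probe sets above that signal in both groups. The median size of the log2 fold change was 0.16, and the median standard error was 0.38, against 0.13 and 0.25 for all such probe sets. In the 81 dim members the median size was 0.57 with a median standard error of 0.83, so their readings scattered more.

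**Figure D2:**
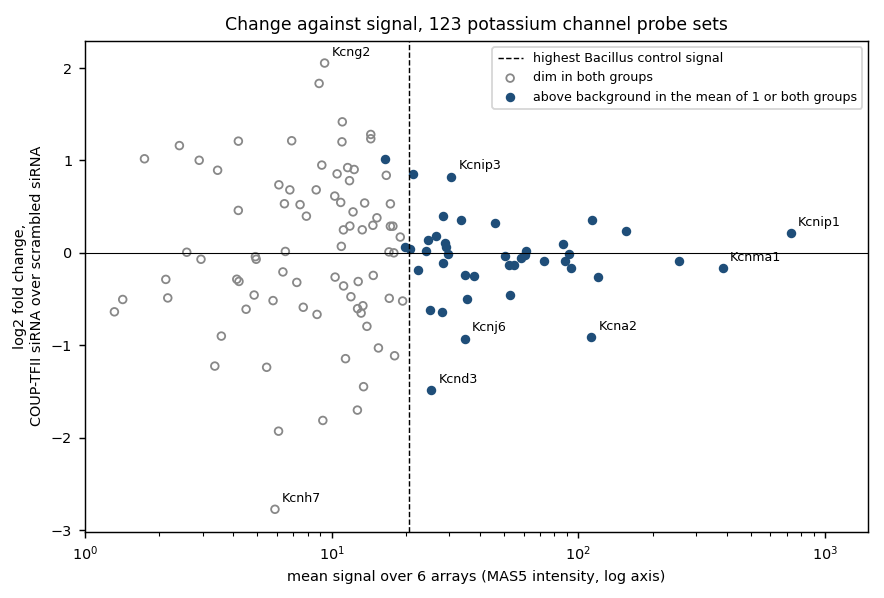
Log2 fold change of COUP-TFII siRNA over scrambled siRNA (vertical axis) against the mean signal over 6 arrays (MAS5 intensity, log axis) for 123 potassium channel probe sets. The points spread widely to the left of the highest Bacillus control signal of 20.7 (dashed line) and draw closer to 0 as the signal rises, with Kcna2 lowest among those with a mean over 100.

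Kcna2 had the lowest p among members above the Bacillus signal, and its arrays did not overlap. It encodes a Shaker-type Kv1 pore subunit known for low-threshold delayed rectifier current. Its brighter probe set read 52.8, 71.1 and 117 in COUP-TFII siRNA replicates 1, 2 and 3 and 120, 125 and 193 in control replicates 1, 2 and 3. Every COUP-TFII siRNA array lay below every control array, although the highest of the former and the lowest of the latter were close. The means were 80.2 ± 32.8 and 146 ± 40.6 (SD, n = 3 each). The log2 fold change was -0.91 with a standard error of 0.32 and a 95% interval from -1.65 to -0.17. The differences within same-numbered pairs were alike, at -1.18, -0.82 and -0.73. Its unadjusted p was 0.0216 in the unpaired limma fit and 0.000222 with the block, and its adjusted p was 1 and 0.308. The unadjusted p was 0.0847 in the methods' t-test and 0.0552 in limma without the intensity trend. In the unpaired fit it was 0.0808 without COUP-TFII siRNA replicate 1, 0.0531 without COUP-TFII siRNA replicate 2, 0.0926 without control replicate 3 and 0.0660 without both replicate 2 arrays. An exact permutation test gave a two-sided p of 0.1, the smallest that 3 arrays against 3 allow. The weaker Kcna2 probe set did not show the difference. It read 26.1, 29.6 and 33.3 in COUP-TFII siRNA cells against 27.9, 20.0 and 36.7 in control cells, a log2 fold change of 0.11 with a 95% interval from -0.82 to 1.04. The intervals of both probe sets overlap, and the difference between both probe sets was not tested.

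Kcnip3 was the other member above the Bacillus signal in both groups whose arrays did not overlap. It encodes a calcium-binding KChIP protein, also known as DREAM or calsenilin, that binds Kv4 channels and can act in the nucleus as a repressor of transcription. The weaker of its probe sets read 33.3, 48.3 and 35.6 in COUP-TFII siRNA cells and 17.2, 23.0 and 26.1 in control cells. Every COUP-TFII siRNA array lay above every control array, and 1 control array lay below the Bacillus signal. The means were 39.1 ± 8.08 and 22.1 ± 4.56 (SD, n = 3 each), and the log2 fold change was 0.82 with a standard error of 0.39 and a 95% interval from -0.074 to 1.72. Its unadjusted p was 0.0677 unpaired and 0.0511 with the block in limma, and 0.0278 in the methods' t-test. In unpaired limma it was 0.0238 without the intensity trend, 0.0854 after quantile normalization and 0.0914 after median centring. The exact permutation p was 0.1, two-sided. The brighter Kcnip3 probe set read 226, 329 and 174 against 300, 356 and 147, so its arrays overlapped and its log2 fold change was -0.093. Counted over both kinds of order, 2 of the 38 members above the Bacillus signal (5.26%) had arrays that did not overlap, against 5.23% of all such probe sets. Over all 123 members it was 10 (8.13%), against 6.74%, and over the 81 dim members 8 (9.88%), against 7.89%.

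The promoters of both genes are shown because these are the members above the Bacillus signal in both groups whose arrays did not overlap. Each window runs from 250 bases before the RefSeq transcript start to 50 after it on the GRCr8 assembly, and was read on the strand of the gene. They were searched on both strands for AGGTCA, the half-element that COUP-TF receptors bind, whose reverse is TGACCT. Neither window holds these letters, so no base is in capitals.
Kcna2, chr2:197393280-197393579 (+ strand): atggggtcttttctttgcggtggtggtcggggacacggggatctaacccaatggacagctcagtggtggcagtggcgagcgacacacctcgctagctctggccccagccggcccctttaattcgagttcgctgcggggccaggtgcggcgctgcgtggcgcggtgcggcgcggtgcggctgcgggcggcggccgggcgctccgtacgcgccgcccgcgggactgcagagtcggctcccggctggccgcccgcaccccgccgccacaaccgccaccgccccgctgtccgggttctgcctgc
Kcnip3, chr3:135195361-135195660 (- strand): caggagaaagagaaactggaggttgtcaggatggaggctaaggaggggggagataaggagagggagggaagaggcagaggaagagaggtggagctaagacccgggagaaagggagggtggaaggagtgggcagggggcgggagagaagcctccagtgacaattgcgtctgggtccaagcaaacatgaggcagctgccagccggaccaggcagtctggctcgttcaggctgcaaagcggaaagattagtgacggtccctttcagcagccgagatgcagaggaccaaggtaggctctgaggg
Of all 33469 promoter windows 16.2% hold the motif. Among 58 windows of 52 potassium channel genes, 5 (8.62%) hold it, and they belong to Kcnc2, Kcnc4, Kcng3 and Kcnh1. Its absence from a window of 300 bases is a description of that window alone.

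The KChIP class also held the member with the highest signal. Kcnip1 encodes a calcium sensor that binds the Kv4 pore and raises its current. Its brightest probe set read 944, 787 and 610 in COUP-TFII siRNA cells and 816, 693 and 512 in control cells. Replicate 1 read highest and replicate 3 lowest in both groups, and in each same-numbered pair the COUP-TFII siRNA array read higher, by 0.21, 0.18 and 0.25 on the log2 scale. The mean log2 difference of 0.22 had a standard error of 0.22 without the block, and it lay between 0.030 (without control replicate 3) and 0.38 (without COUP-TFII siRNA replicate 3) with 1 array left out. Without COUP-TFII siRNA replicate 1 it was 0.066. These unpaired fits leave 1 array without its partner, so the level that same-numbered arrays share enters the values. For this brightest probe set the unadjusted limma p was 0.349, and with the block it was 0.0248, with an adjusted p of 0.778. The second in brightness had pair differences of 0.29, 0.25 and 0.17, with signals from 129 to 229 against 115 to 187. It had a blocked unadjusted p of 0.0714. The remaining Kcnip1 probe set was dim. Kcnip4 read 31.0 ± 12.3 against 35.9 ± 36.1, and Kcnip2 read 25.6 ± 14.4 against 22.6 ± 8.08 (SD, n = 3 each).

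The Kv4 pores to which KChIP proteins bind gave low signals. A Kcnd3 probe set read 22.6, 2.39 and 27.7 in COUP-TFII siRNA cells against 38.1, 21.7 and 39.7 in control cells. Replicate 2 was the lowest array in both groups, and its COUP-TFII siRNA array read near the bottom of the scale. The log2 fold change of -1.48 had a standard error of 0.91 and a blocked unadjusted p of 0.0405 in limma, and without COUP-TFII siRNA replicate 2 it was -0.35. The group means were 17.6 and 33.2, so this probe set lay above the Bacillus signal in the control group only. Such a choice favours lower readings in COUP-TFII siRNA cells, so the p is given as a description. Another Kcnd3 probe set went the other way, at 30.9 ± 3.83 against 25.5 ± 13.6 (SD, n = 3 each), a log2 fold change of 0.40, and the remaining Kcnd3 probe set was dim. Kcnd1 read 32.7 ± 7.18 against 42.8 ± 24.9, and Kcnd2 read 27.5 ± 24.4 against 21.6 ± 12.5 (SD, n = 3 each).

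The arrays of the other voltage-gated pores named here overlapped between groups. Kcnh6, an ERG-type pore, read 81.5, 94.7 and 157 against 125, 107 and 157. It was lower in COUP-TFII siRNA cells in each pair, barely so in pair 3, and its log2 fold change was -0.26 with a 95% interval from -0.90 to 0.37. Kcnh2, the ERG pore that repolarises heart muscle, read 62.7 ± 16.0 against 60.6 ± 7.54 (SD, n = 3 each). The brightest probe set of Kcnq5, a pore of the M-current family, followed the replicate number closely, at 93.9, 69.0 and 110 against 94.5, 68.2 and 113. The second in brightness did not, with pair differences of -0.35, -1.07 and 0.86, and the remaining Kcnq5 probe set was dim. Kcnh3, an ELK pore, read 85.4 ± 10.6 against 91.8 ± 19.1, and the EAG pore Kcnh1 read 47.3 ± 12.2 against 53.7 ± 29.6 (SD, n = 3 each). Among Shaker pores Kcna5 read 71.5 ± 23.7 against 73.5 ± 13.3, and Kcna4 read 56.5 ± 15.0 against 61.0 ± 27.0 (SD, n = 3 each). The Kv beta subunit Kcnab3 read 52.4 ± 9.39 against 57.6 ± 9.06 (SD, n = 3 each). Kcnc4, a fast Kv3 pore, read 27.6 ± 8.99 against 31.8 ± 23.4 (SD, n = 3 each). Kcnq1, a pore that pairs with MinK-related subunits, lay near the Bacillus signal at 20.0 ± 5.73 against 22.8 ± 21.8 (SD, n = 3 each).

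**Figure D3:**
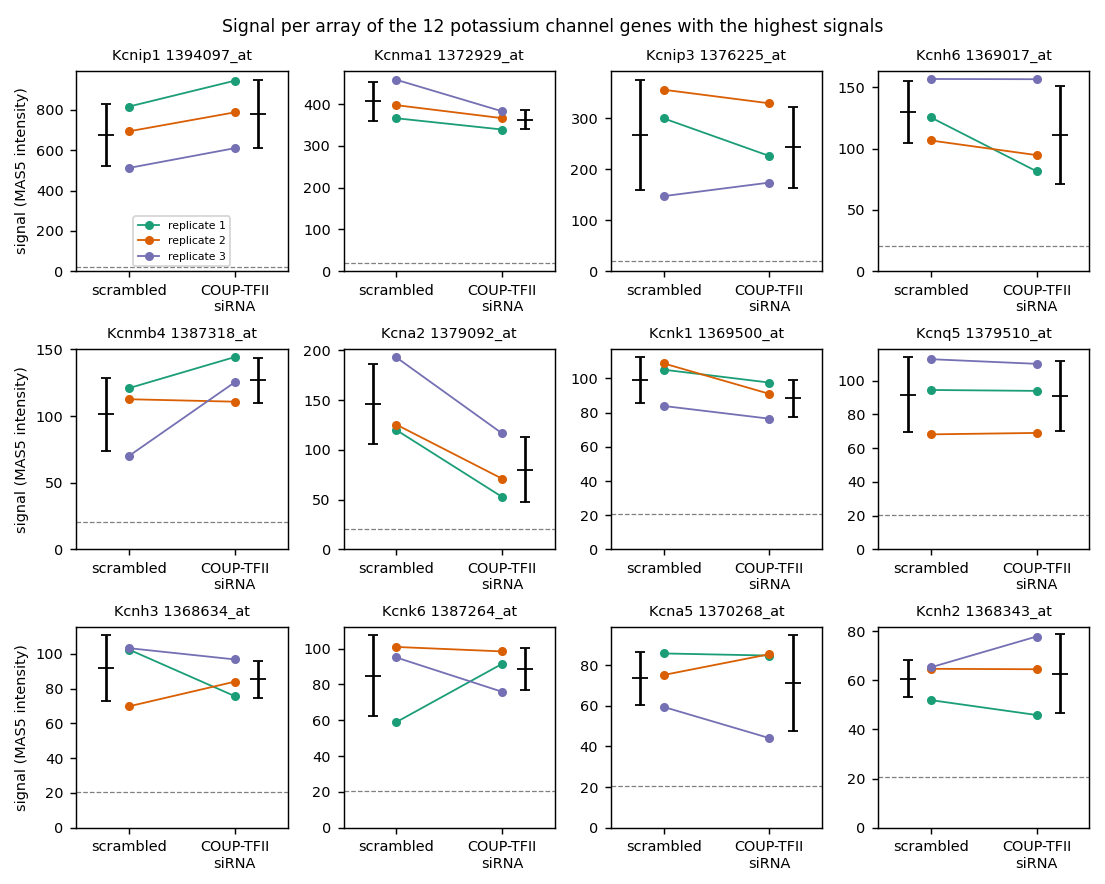
Signal per array (MAS5 intensity, linear axes from 0) of the 12 potassium channel genes with the highest signals, with same-numbered arrays joined by lines and the mean ± SD of 3 arrays beside each group. A dashed line marks the Bacillus signal of 20.7. The 3 lines of Kcna2 all run down from control to COUP-TFII siRNA, those of Kcnip1 all run up in parallel, and those of Kcnq5 are nearly flat.

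Calcium-activated channels were led by Kcnma1, the BK pore subunit, which opens with both depolarisation and calcium. Its brightest probe set read 339, 366 and 383 against 366, 397 and 458. Each COUP-TFII siRNA array lay below the control array of its number, while the groups overlapped. The log2 fold change was -0.16 with a 95% interval from -0.49 to 0.17. The other 2 Kcnma1 probe sets were dim, at group means of 19.3 against 9.56 and 7.14 against 18.3. Kcnmb4, the BK beta subunit best known from neurons, read 144, 111 and 125 against 121, 113 and 70.1, a log2 fold change of 0.36 with a 95% interval from -0.22 to 0.93. Its difference was carried by a single low control array, replicate 3, without which it was 0.11. Kcnn1, an SK pore, read 28.8 ± 9.95 against 29.4 ± 17.6, and the sodium-activated Kcnt1 read 32.2 ± 8.39 against 37.3 ± 3.13 (SD, n = 3 each).

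Among K2P probe sets above the Bacillus signal, log2 fold changes ran from -0.64 for Kcnk10 to 0.33 for Kcnk2. Kcnk1, a weak inward-rectifying leak pore, read 97.6, 91.0 and 76.5 against 105, 109 and 83.9, lower in each pair, with a log2 fold change of -0.17 and a 95% interval from -0.66 to 0.33. The brightest probe set of Kcnk3, an acid-sensitive leak pore, was the steadiest member, at 60.4 ± 1.63 against 61.5 ± 2.46 (SD, n = 3 each). The other Kcnk3 probe sets were dim, at group means of 14.4 against 19.9 and 14.3 against 16.3. The weaker probe set of Kcnk6, also a leak pore, read 21.1, 31.8 and 35.3 against 30.4, 49.0 and 45.3, a log2 fold change of -0.50 that was lower in each pair. The brighter Kcnk6 probe set had a log2 fold change of 0.091, so the gene has no single direction here. Kcnk2, a leak pore opened by stretch and lipids, was higher in each pair, at 37.5, 43.0 and 71.3 against 26.7, 35.6 and 61.2, and its log2 fold change of 0.33 had a 95% interval from -0.63 to 1.28 and shrank to 0.051 when COUP-TFII siRNA replicate 3 was left out and to 0.058 when control replicate 1 was. Kcnk10, a relative of Kcnk2, read 17.8, 30.9 and 17.5 against 35.6, 25.3 and 40.6, with a log2 fold change of -0.64 and a 95% interval from -1.64 to 0.36. The other Kcnk10 probe set was dim and went the other way, with a log2 fold change of 0.78.

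Among inward rectifiers Kcnj6, a pore opened by G proteins, had the lowest log2 fold change of the 38 members above the Bacillus signal, at -0.93 for the second brightest of its probe sets. It read 43.9, 26.6 and 9.11 against 51.3, 31.4 and 45.5. The COUP-TFII siRNA array of replicate 3 was far below the others, and without it the log2 fold change was -0.29. The brightest Kcnj6 probe set read 45.1, 64.1 and 39.1 against 37.1, 75.7 and 53.0, a log2 fold change of -0.13, and its other 2 probe sets were dim. Kcnj14, a strong inward rectifier, read 36.5, 37.5 and 58.9 against 56.9, 83.3 and 44.4, a log2 fold change of -0.46 with a 95% interval from -1.26 to 0.34. Its groups overlapped and pair 3 ran against the other pairs.

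The dim probe sets that reached an unadjusted p up to 0.05 are given by their signals only, since readings at that level may be background. Kcnk5, an acid-sensitive leak pore, read 18.3, 24.3 and 18.3 in COUP-TFII siRNA cells against 9.12, 8.49 and 8.05 in control cells, with an unadjusted limma p of 0.0463 unpaired and 0.0680 with the block. The brightest probe set of Kcng2, a silent subunit, read 11.1, 6.62 and 28.2 against 1.49, 4.52 and 4.32, with an unadjusted limma p of 0.0357. The other Kcng2 probe sets did not show the difference, at group means of 5.92 against 6.78 and 2.40 against 2.77. Kcnk5 and the brightest Kcng2 probe set both had higher readings on every COUP-TFII siRNA array, but only 1 array of each lay above the Bacillus signal. Kcnh7, an ERG-type pore, read 0.771, 1.71 and 1.27 against 13.7, 3.53 and 14.5, with an unadjusted limma p of 0.00721. The inward rectifier Kcnj4 read 1.60, 3.55 and 2.51 against 6.03, 11.3 and 11.5 with its weaker probe set, with an unadjusted limma p of 0.0237. Its brighter probe set read 21.2 ± 11.3 against 28.7 ± 5.71 (SD, n = 3 each), and its arrays overlapped. For Kcnh7 and the weaker Kcnj4 probe set all 6 arrays lay below the Bacillus signal.

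The signals of the members moved with the replicate number in both groups. Across the 38 members above the Bacillus signal in both groups, deviations from the group mean of log2 signal correlated between arrays of the same number at r = 0.575, 0.395 and 0.40 for numbers 1, 2 and 3. Between arrays of different numbers r ran from -0.416 to -0.041, which follows in part from deviations that cancel within a group. These are correlations across 38 probe sets within arrays, some of which share a gene, and are given as a description. Replicate 3 was the highest array in both groups for 15 of the 38 members, and replicate 1 the lowest in both for 9. In the 81 dim members the same-number values were 0.127, -0.040 and 0.023. Replicate 2 arrays had the lowest median signals of their groups, and the median difference of the dim members in pair 2 was 0.40 on the log2 scale, against 0.074 for all dim probe sets. The part of array signal in this shift was not tested.

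The sign was shared by all 3 pairs for 35 members (28.5%), against 27.4% of all probe sets. Of these, 17 were higher in COUP-TFII siRNA cells, against a background of 13.4% of all probe sets, and 18 were lower, against 14%. Among the 38 above the Bacillus signal it was shared by 11 (28.9%), against 29% of all such probe sets, with 14.4% higher and 14.5% lower. The 4 higher ones were both brighter Kcnip1 probe sets, Kcnk2 and the weaker of both Kcnip3 probe sets named above. The 7 lower ones were Kcnma1, Kcnh6, Kcnk1, Kcnk3, the brighter Kcna2, the weaker Kcnk6 and the second brightest Kcnj6 probe set.

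**Figure D4:**
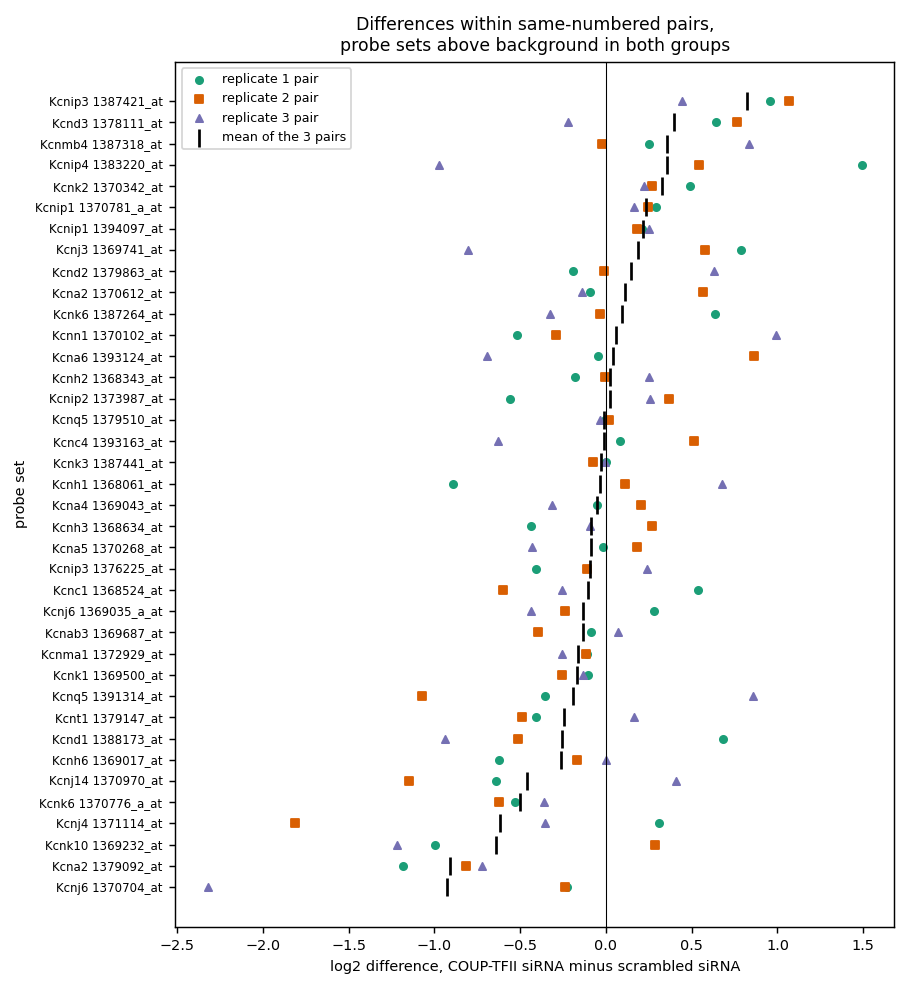
Log2 difference of signal, COUP-TFII siRNA minus scrambled siRNA, in each of the 3 same-numbered pairs for the 38 potassium channel probe sets above background in both groups, ordered by their mean (bars). The brighter Kcna2 probe set has all pairs at or below -0.73, the weaker Kcnip3 probe set has all pairs at or above 0.45, and most other probe sets have pairs on both sides of 0.

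Proteins that work with these channels under other gene names were compared as a list of 17 genes, of which 14 were measured and 9 lay above the Bacillus signal. None reached an unadjusted p up to 0.05 in limma without or with the block, and 0 passed after adjustment. The median log2 fold change was -0.042, against -0.0031 over all probe sets. Kcnj11 and its regulatory subunit Abcc8, the sulfonylurea receptor, form the channel that closes when glucose is metabolised. The brightest Kcnj11 probe set read 861 ± 48.4 against 914 ± 60.3 (SD, n = 3 each). Abcc8 read 464, 492 and 655 against 541, 714 and 514. Dpp6, an auxiliary subunit of Kv4 channels, read 193, 222 and 215 against 219, 258 and 206. Amigo1, which binds Kv2 pores, read 99.5 ± 12.2 against 93.5 ± 10.2, and the pacemaker channel Hcn2 read 62.0 ± 7.54 against 67.3 ± 10.1 (SD, n = 3 each).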

How the data were processed

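RNA of 832/13 INS-1 cells was measured on 3 arrays per group. The deposited values are linear intensities that the authors obtained with MAS5 (version not given in the sources used here) after background subtraction and scaling to reference probes. The table holds 31099 probe sets, and 57 controls were left out. No detection calls were used, so the 27 Bacillus control probe sets gave the scale for background, at or under which 36.2% to 43.7% of an array's probe sets read. Values under 1, which made up 1.85% to 5.49% of an array, were raised to 1 before log2 was taken, with no other normalization. Small signals can therefore give large log2 changes. The number of arrays limits the precision.

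An unpaired, two-sided comparison used limma 3.58.1 under R 4.3.3, with lmFit and a trended eBayes step and with Benjamini-Hochberg adjustment over 31042 probe sets. The fit was also run on simulated arrays drawn independently, without a replicate effect. That run cannot show how the fit behaves on paired arrays, and no result here rests on it. Permutation tests and promoter searches were run in Python 3.11.15 with scipy 1.17.1, and figures were drawn with matplotlib 3.10.9. Symbols came from the platform annotation, which gives a single symbol to 20826 probe sets, more than 1 to 436 and no symbol to 9780. Promoters came from RefSeq tables of GRCr8. Protein sequences were not analysed here.

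The replicate numbers 1 to 3 are shared by both groups. Whether they pair the arrays was taken from the data: each array's departures from its group mean correlated at 0.111, 0.231 and 0.163 for the same number and from -0.146 to -0.0104 for different numbers. Departures cancel within a group, so positive same-number values make the different-number values lean negative. The latter are no separate evidence of pairing. The replicate numbers were taken to pair the arrays, and blocked values are printed where they change a call. Standard errors and intervals come from the unpaired fit unless marked as blocked, so they leave the pairing out. Values with 1 array left out also come from the unpaired fit and leave the array of the same number without its partner. Blocked standard errors were smaller for the brighter Kcna2 (0.15 against 0.32) and the brightest Kcnma1 (0.088 against 0.14) probe sets. The same held for the brightest Kcnip1 probe set (0.080 against 0.22) and Kcnh6 (0.16 against 0.28). For the dim Kcnk5 the blocked one was larger (0.60 against 0.53).

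The members, lists and tests were chosen with earlier results of these data known. The named probe sets are those of the 12 genes with the highest signal, the brightest of each class, those at an unadjusted p up to 0.05, those above background whose groups do not overlap or whose pairs share a sign with an absolute log2 fold change of at least 0.4, and members known from β-cells. A few others were named after their values were seen. Alternatives were the block, left-out arrays, other background levels, dim probe sets filtered out, log2(signal + 16), median centring, quantile normalization, untrended limma and the methods' t-test. The block with a filter was chosen after seeing the data.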

Additional observations from a re-analysis of the deposited data

How the results depend on the processing

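Under every alternative run, 0 potassium channel probe sets passed an adjusted p up to 0.05 in limma or the methods' t-test. The count at an unadjusted p up to 0.05 that were higher in COUP-TFII siRNA cells was 2. It was 1 after median centring, 1 under either filter on dim probe sets and 1 without both replicate 2 arrays. It was 5 with the replicate block and log2(signal + 16), and it ran from 1 to 3 with a single array left out. The filters removed both members of the main count, Kcnk5 and Kcng2. The 1 under either filter was the weaker Kcnip3 probe set, with an unadjusted limma p of 0.0443 and 0.0460. The count that were lower was 3. It was 1 under either filter, 1 without both replicate 2 arrays, 5 with the replicate block and quantile normalization, and 6 with the replicate block and log2(signal + 16), and from 2 to 4 with a single array left out. With the replicate block alone the counts were 2 higher and 4 lower. The filters test fewer probe sets, and for the other settings the cause was not tested. For the brighter Kcna2 probe set the blocked adjusted p was 0.120 with the filter on at least 1 group mean, and with 1 array left out its change was between -1.22 and -0.65. That of the weaker Kcnip3 probe set was between 0.65 and 0.96. Without COUP-TFII siRNA replicate 3 the second brightest Kcnj6 probe set was at -0.29, and the Kcnd3 probe set with the blocked p of 0.0405 ran from -2.12 to -0.35. In the same way Kcnk2 lay between 0.051 and 0.66, Kcnh6 between -0.54 and -0.072, Kcnk1 between -0.28 and -0.066, Kcnma1 between -0.24 and -0.074, Kcnmb4 between 0.11 and 0.50, Kcnj14 between -0.68 and -0.22, the weaker Kcnk6 between -0.71 and -0.28, Kcnk10 between -0.91 and -0.50 and the brighter Kcnd3 between 0.16 and 0.80. Of the partner genes 1, against 0, reached an unadjusted p up to 0.05 with the replicate block and quantile normalization.

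Of 342 values for 19 probe sets, 333 kept their direction and their side of the adjusted threshold, and 9 turned, for 5 probe sets. The methods' t-test, untrended limma, the filters and the block without another normalization or pseudocount leave each log2 fold change as it is. Directions could not turn under these settings, so the count of kept values overstates what was tried. With 1 array left out the weaker Kcna2 probe set ran from -0.12 to 0.32 (-0.12 without both replicate 2 arrays), the brighter Kcnip3 from -0.48 to 0.16, the second Kcnip1 from -0.0021 to 0.44, the brighter Kcnk6 from -0.15 to 0.23 and the brightest Kcnj6 from -0.39 to 0.12. Leaving out 1 array leaves its partner unmatched, so a level shared by same-numbered arrays enters these values. The second Kcnip1 probe set was higher in each pair, by 0.29, 0.25 and 0.17. The number of members above background was 42 probe sets for 34 genes. It was 76 and 56 with the 95th percentile of the Bacillus signals (13.8), 23 and 20 at 2 times the highest Bacillus signal, and 23 and 21 when all 6 arrays had to lie above it.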
